A study of Mus musculus with 5 samples.

Results

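The 40 genes described here code for collagens, for the proteins that organise, cross-link and degrade the collagen matrix of the liver, and for the contractile and signalling proteins of the hepatic stellate cell. Their probes were found through the transcript accession that the scanner files give for each spot, with its version dropped. Of the 40 genes, 39 had a probe and 36 were among the 21508 features tested. Col15a1, Eln and Lox had probes that did not pass the filter on dim spots, and Col6a3, for which no probe was matched, was not analysed here.

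Liver RNA was compared on 5 two-colour arrays. Fra-1hep mice, described as overexpressing the transcription factor Fra-1 in hepatocytes only, were on the C57BL/6J background and aged 26 to 28 weeks. Control mice were C57BL/6J wild-type animals of the same age, and their RNA was used as a single pool of 5 mice. All animals in both groups ate a high-fat diet with 45% of its energy from fat from 4 weeks of age. Each of 4 arrays carried Cy5-labelled RNA of 1 Fra-1hep mouse (mice 1 to 4) against the Cy3-labelled control pool. On the remaining array, called the swapped pool below, the dyes were reversed and the Fra-1hep RNA was pooled. The promoter that drives the transgene, the sex of the mice and which mice formed the Fra-1hep pool are not given in the sources used here. All values are log2 ratios of Fra-1hep over control unless stated otherwise, so a negative value means less RNA in Fra-1hep liver. The fitted value averages the mean of the 4 mice with the swapped pool, and its standard error (SE) comes from the spread of the mice.

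Hepatic stellate cells lie between hepatocytes and the sinusoidal endothelium and store vitamin A when quiescent. On activation they become contractile myofibroblasts that secrete fibrillar collagen, mainly of types I and III, together with TIMP proteins that protect it from matrix metalloproteinases (MMPs). Transforming growth factor beta and platelet-derived growth factor are the best known signals for this change. Fra-1, the product of Fosl1, is a subunit of the AP-1 transcription factor.

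Between 47.15% and 54.7% of spots were well above background with Fra-1hep RNA on each array, against 47.7% to 61.54% with control RNA. Both highest shares came from the array of mouse 1, which lay alone on its slide, while the other 4 arrays shared a slide. The single Fosl1 probe was not well above background with Fra-1hep RNA on any array, and was so with control RNA on 1 array, so it does not check the labels. All 8 hepatocyte markers examined were well above background in both groups on all 5 arrays.

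Most of the matrix and stellate cell genes had less RNA in Fra-1hep liver. Of the 36 tested, 21 were lower and 3 were higher at an adjusted p under 0.05 (limma, Benjamini-Hochberg over all features), and 12 did not pass. Mmp13, 1 of the 21, passed the filter on dim spots through the control RNA alone. Over all 21508 features, 15.4% were lower and 11.2% were higher. The median of the 36 genes was -0.36, while that of all features was -0.0034. On all 5 arrays 20 of the genes lay below 0, where 19.5% of all features did, and 4 lay above 0, where 16.1% did. Allowing for a spread among the 5 control mice as large as among the Fra-1hep mice, 17 genes were lower and 1 was higher, where 8.16% and 5.01% of all features were. For a change beyond 1.2-fold, 13 were lower and 1 was higher, where 3.32% and 1.53% of all features were. Without the swapped pool, 20 were lower and 4 were higher, where 18.9% and 16.9% of all features were. In whole liver, fewer cells of a type and less RNA per cell cannot be told apart.

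**Figure D1:**
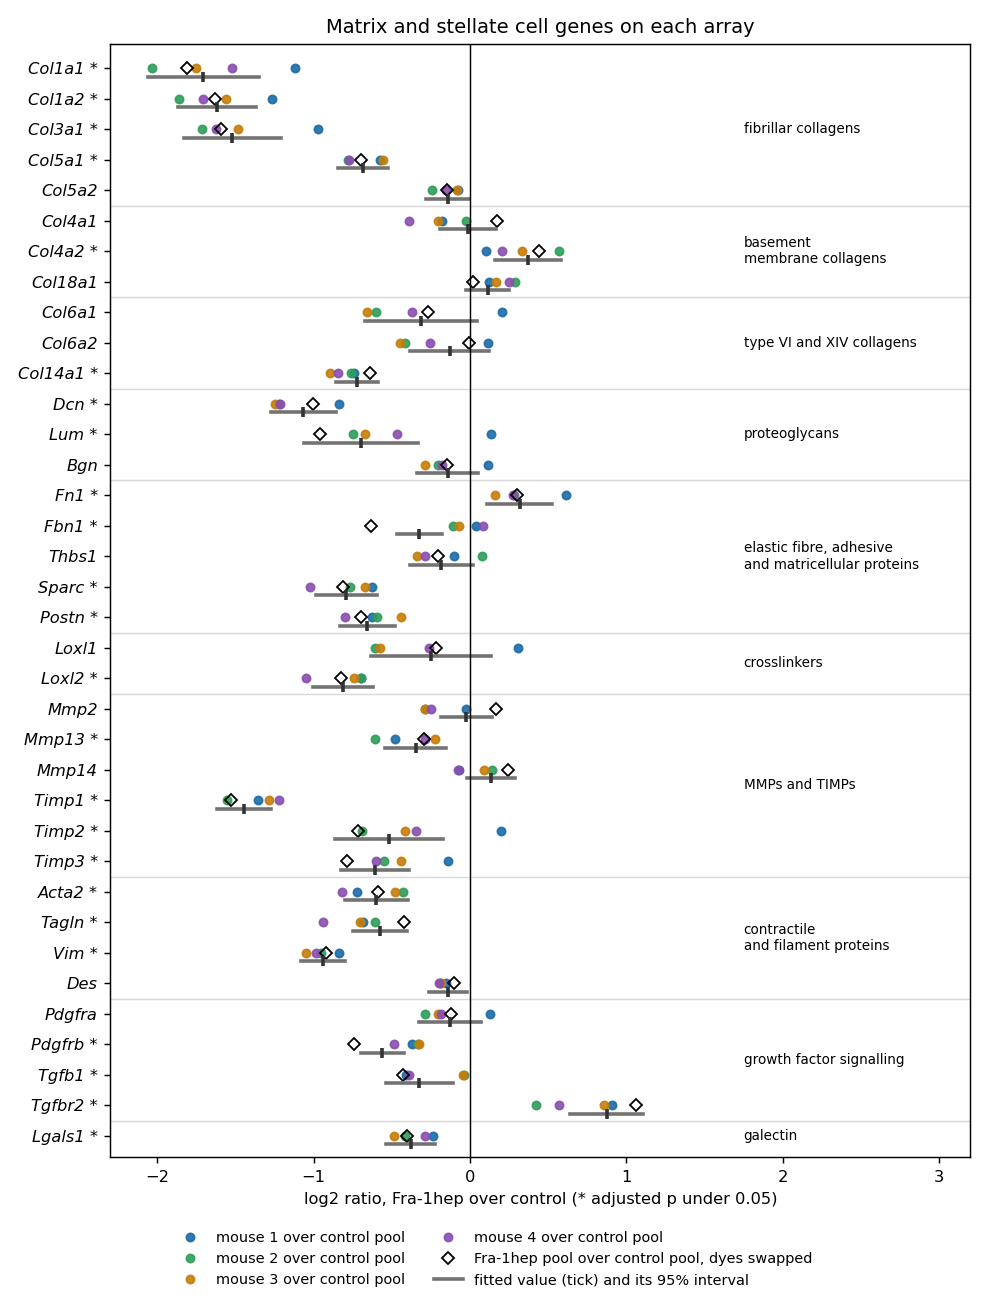
Log2 ratio of Fra-1hep over control (x axis) for the 36 genes tested, by group. Points are the 4 mice, the diamond is the swapped pool, and the tick and bar below them are the fitted value and its 95% interval. The 3 main fibrillar collagens and Timp1 lie furthest to the left, and Tgfbr2 furthest to the right.

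The fibrillar collagens, which form the tensile fibres of scar and portal matrix, had the lowest median of the groups, -1.52, and 4 of the 5 were lower. Windows of 250 bases directly upstream of the transcription start are shown for Col1a2 and Col3a1, the pair of these genes with the largest falls for which a window was held. They come from RefSeq (GRCm38.p6), chr6:4505368-4505617 on the plus strand and chr1:45311288-45311537 on the plus strand, written 5′ to 3′ along the gene. Capitals mark each match on either strand to CCAAT, to GGGCGG (the GC box), to TATAAA or to CAGACA (the SMAD box).
Col1a2: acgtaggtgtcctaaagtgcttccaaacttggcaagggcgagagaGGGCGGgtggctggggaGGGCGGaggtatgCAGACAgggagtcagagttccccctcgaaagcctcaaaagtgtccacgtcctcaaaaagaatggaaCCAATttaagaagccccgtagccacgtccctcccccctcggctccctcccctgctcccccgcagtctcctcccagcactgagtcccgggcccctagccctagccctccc
Col3a1: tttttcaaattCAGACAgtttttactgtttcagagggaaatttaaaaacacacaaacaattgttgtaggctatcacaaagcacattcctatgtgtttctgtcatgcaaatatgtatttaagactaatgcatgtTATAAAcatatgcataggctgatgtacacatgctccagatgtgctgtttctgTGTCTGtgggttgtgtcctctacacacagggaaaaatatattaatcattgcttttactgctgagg

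Col1a2 carried 2 GC boxes, a CCAAT box and a SMAD box in this window, and Col3a1 a TATA box and 2 SMAD boxes. Over the 25 of 40 genes with a window, 6 held CAGACA, against 17.1% of all 32851 windows, and 9 held CCAAT, against 33.8%. GGGCGG was in 13 of the 25 and in 32.7% of all windows, and TATAAA in 4 and in 12.4%. These matches are descriptions of sequence.

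Col1a1, which codes for the alpha 1 chain of type I collagen, lay at -1.12, -2.03, -1.75 and -1.52 in mice 1 to 4 and at -1.81 in the swapped pool. Its fitted value was -1.71 ± 0.15 (SE; adjusted p = 0.000532), a 3.27-fold difference. Every array was below -1, and mouse 1 was the least changed. Col1a2, the alpha 2 chain of the same protein, lay at -1.27, -1.86, -1.56 and -1.71 in the mice and at -1.63 in the swapped pool, with a fitted value of -1.62 ± 0.11 (SE; adjusted p = 0.000145). Col3a1, the type III chain, lay at -0.97, -1.72, -1.48 and -1.62 in the mice and at -1.59 in the swapped pool (fitted -1.52 ± 0.13, SE; adjusted p = 0.000492). Mouse 1 was again the closest to 0 for both genes.

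Type V collagen is a minor component that helps to start fibrils, and its chain gene Col5a1 moved less than Col1a1. Col5a1 lay at -0.58, -0.78, -0.56 and -0.77 in the mice and at -0.70 in the swapped pool (fitted -0.69 ± 0.07, SE; adjusted p = 0.000851). Its 95% interval, -0.85 to -0.53, did not reach that of Col1a1, -2.06 to -1.35. Col5a2 lay at -0.08, -0.24, -0.08 and -0.16 in the mice and at -0.15 in the swapped pool, and did not pass (fitted -0.14 ± 0.06, SE; adjusted p = 0.111). The Col5a2 probe was well above background in no Fra-1hep channel and in 4 control channels, so it entered the test through the control RNA alone and its ratio is compressed.

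None of the 3 basement membrane collagens tested was lower, and 1 was higher. Col4a2, the alpha 2 chain of type IV collagen, was higher at 0.37 ± 0.09 (SE; adjusted p = 0.0237) and lay between 0.10 and 0.57 on the 5 arrays, all above 0. This call ended when a control spread was allowed for (adjusted p = 0.0784) and when mouse 3 was left out (adjusted p = 0.0523). Col4a1, which pairs with it in the type IV molecule, was at -0.01 with a 95% interval of -0.19 to 0.16, and its swapped pool lay at 0.18 while all 4 mice were below 0. Col18a1, the source of the fragment endostatin, was at 0.11 (-0.02 to 0.25) and did not pass, and without the swapped pool it was higher at 0.21 (adjusted p = 0.0209). Its second probe gave -0.11.

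Col14a1, a collagen that attaches to the surface of fibrils, was lower at -0.73 ± 0.06 (SE; adjusted p = 0.000343). The probe used lay at -0.74, -0.76, -0.90 and -0.85 in the mice and at -0.64 in the swapped pool. Its second probe moved less, at -0.34, -0.51 and -0.49 in mice 1, 2 and 4 and -0.49 in the swapped pool. That probe had no value for mouse 3. Type VI collagen, which forms beaded filaments around cells, split the mice. Col6a1 lay at 0.20 in mouse 1 and at -0.60, -0.66 and -0.37 in mice 2 to 4, with -0.27 in the swapped pool, and Col6a2 at 0.12 in mouse 1 and at -0.42, -0.45 and -0.26 in mice 2 to 4. Neither passed, with fitted values of -0.31 and -0.13.

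The small leucine-rich proteoglycans, which coat collagen fibrils and set their spacing, had a median of -0.70. Decorin (Dcn) lay at -0.84, -1.22, -1.25 and -1.22 in the mice and at -1.01 in the swapped pool (fitted -1.07 ± 0.09, SE; adjusted p = 0.000408). Lumican (Lum) lay at 0.13, -0.75, -0.67 and -0.47 in the mice and at -0.96 in the swapped pool (fitted -0.70 ± 0.15, SE; adjusted p = 0.0174). Only mouse 1 was above 0 for lumican, whose value was -0.44 without the swapped pool and whose call ended with a control spread allowed for (adjusted p = 0.0613). Biglycan (Bgn), at -0.14 with a 95% interval of -0.34 to 0.05, did not pass.

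Among elastic fibre, adhesive and matricellular proteins, 3 of 5 were lower and 1 was higher. Sparc, a collagen-binding protein of remodelling tissue, lay at -0.63, -0.77, -0.67 and -1.03 in the mice and at -0.81 in the swapped pool (fitted -0.79 ± 0.08, SE; adjusted p = 0.00107). Periostin (Postn), which is secreted by activated fibroblasts, lay at -0.63, -0.59, -0.44 and -0.80 in the mice and at -0.70 in the swapped pool (fitted -0.66 ± 0.07, SE; adjusted p = 0.00146). Both were below 0 on every array, and the second Sparc probe gave -0.61.

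Fibronectin (Fn1), which hepatocytes also make in quantity for the plasma, was higher at 0.32 ± 0.09 (SE; adjusted p = 0.03685) and lay between 0.16 and 0.61 on the 5 arrays. Its call ended without mouse 4 (adjusted p = 0.0673) and with a control spread allowed for (adjusted p = 0.1105). The call for fibrillin-1 (Fbn1), the core of elastic microfibrils, rested on the swapped pool. That array gave -0.64, and the 4 mice gave -0.01 ± 0.09 (SD, n = 4). Its fitted value of -0.32 passed (adjusted p = 0.00954), and without the swapped pool the value was -0.01 (adjusted p = 0.861). Thrombospondin-1 (Thbs1), an activator of latent transforming growth factor beta, was at -0.18 and did not pass.

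Of the lysyl oxidase family, which cross-links collagen and elastin, Loxl2 was lower. Its brightest probe lay at -0.70, -0.70, -0.74 and -1.05 in the mice and at -0.83 in the swapped pool (fitted -0.81 ± 0.08, SE; adjusted p = 0.000864). Its other probes gave -0.49 and -0.30, so the direction was shared and the size was not. Loxl1 lay at 0.30 in mouse 1 and at -0.61, -0.57 and -0.27 in mice 2 to 4, with -0.22 in the swapped pool, and did not pass (fitted -0.25). Without mouse 1 both Loxl1, at -0.35 (adjusted p = 0.0284), and Col6a1, at -0.41 (adjusted p = 0.0133), passed the test.

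Of the 6 MMP and TIMP genes, which govern collagen breakdown, 4 were lower: the 3 TIMP inhibitors and Mmp13. Upstream windows of Timp1, the member of this group with the largest fall, and of Mmp13, the main interstitial collagenase of the mouse, are shown because Mmp13 carries a match to the AP-1 site. They lie at chrX:20869916-20870165 on the plus strand and chr9:7272264-7272513 on the plus strand (RefSeq, GRCm38.p6). Capitals mark the motifs given above and TGANTCA, the AP-1 site.
Timp1: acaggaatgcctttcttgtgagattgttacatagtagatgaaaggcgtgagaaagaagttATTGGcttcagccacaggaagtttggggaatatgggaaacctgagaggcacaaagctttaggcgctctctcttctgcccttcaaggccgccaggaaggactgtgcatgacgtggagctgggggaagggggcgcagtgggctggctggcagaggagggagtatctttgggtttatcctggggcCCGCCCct
Mmp13: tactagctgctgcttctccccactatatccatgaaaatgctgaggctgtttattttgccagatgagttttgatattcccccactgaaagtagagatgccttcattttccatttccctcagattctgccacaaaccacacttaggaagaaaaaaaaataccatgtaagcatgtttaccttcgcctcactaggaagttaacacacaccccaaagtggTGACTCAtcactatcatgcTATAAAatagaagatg

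The match in the Mmp13 window, TGACTCA, begins 35 bases before the start and is followed by a TATA box. Among the 25 genes with a window, TGANTCA was also found in that of Col6a1, and 6.75% of all windows held it. TGACGTCA was in none of the 25 windows and in 1.55% of all windows, and the CArG box was in none and in 1.47%.

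Timp1, an inhibitor of most MMPs, lay at -1.36, -1.55, -1.29 and -1.22 in the mice and at -1.53 in the swapped pool. Its fitted value was -1.44 ± 0.07 (SE; adjusted p = 5.826e-05), and the 5 arrays were close to each other. Timp3, an inhibitor bound to the matrix, lay at -0.14, -0.55, -0.44 and -0.60 in the mice and at -0.79 in the swapped pool (fitted -0.61 ± 0.09, SE; adjusted p = 0.00442). Timp2, which also takes part in the activation of pro-MMP2, was lower at -0.52 ± 0.15 (SE; adjusted p = 0.0394), with mouse 1 at 0.20. Without the swapped pool it was -0.31 (adjusted p = 0.103), and its call also ended without mouse 3 (adjusted p = 0.0772) or mouse 4 (adjusted p = 0.0807).

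Mmp13 was not well above background with Fra-1hep RNA on any array and was so with control RNA on all 5, so it passed the filter through the control group alone. It was lower in Fra-1hep liver (fitted -0.35, 95% interval -0.54 to -0.15, adjusted p = 0.0218), a test against 0 that sets no minimum size. This call ended with a control spread allowed for (adjusted p = 0.0733) and for a change beyond 1.2-fold. Mmp2, a gelatinase made by stellate cells, was at -0.02 with a 95% interval of -0.18 to 0.14, and without the swapped pool it was lower at -0.21 (adjusted p = 0.0332). Mmp14, the membrane-bound activator of pro-MMP2, was at 0.13 (-0.02 to 0.28).

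**Figure D2:**
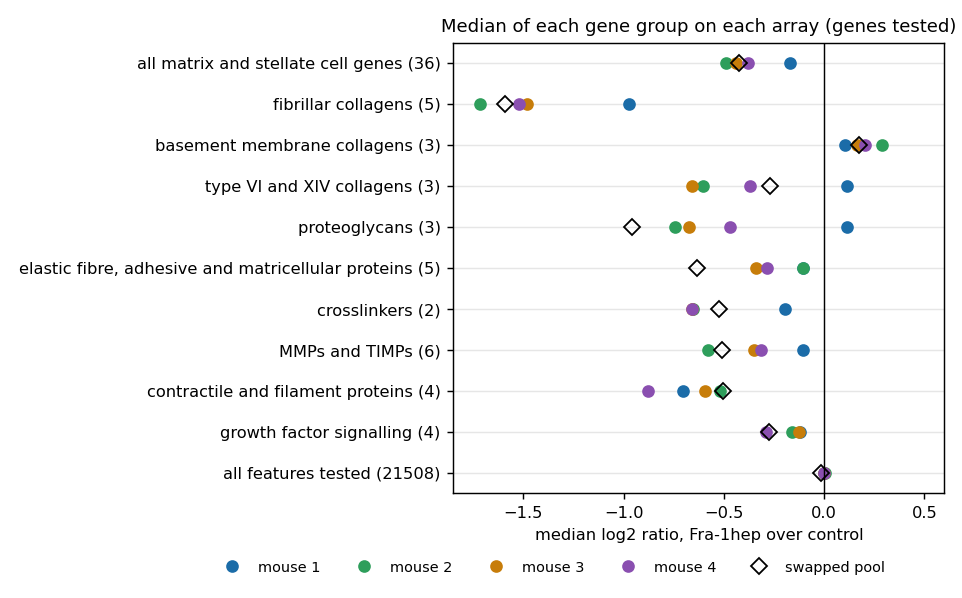
Median log2 ratio of Fra-1hep over control (x axis) of each gene group with more than 1 gene tested, on each array (colours, mice 1 to 4; diamond, swapped pool), with the number of genes in brackets. The fibrillar collagens lie between -1.72 and -0.97, the basement membrane collagens lie above 0 on every array, and mouse 1 lies above 0 for the type VI and XIV collagens and for the proteoglycans.

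The 4 contractile and filament genes had a median of -0.59, and 3 of them were lower. Smooth muscle actin (Acta2) lay at -0.72, -0.43, -0.48 and -0.82 in the mice and at -0.59 in the swapped pool (fitted -0.60 ± 0.09, SE; adjusted p = 0.00363). Transgelin (Tagln), an actin-binding protein, lay at -0.68, -0.61, -0.71 and -0.94 in the mice and at -0.42 in the swapped pool (fitted -0.58 ± 0.07, SE; adjusted p = 0.00225). For these genes mouse 1 was not the closest to 0 among the mice.

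Vimentin (Vim), an intermediate filament of mesenchymal cells, lay at -0.84, -0.95, -1.05 and -0.98 in the mice and at -0.92 in the swapped pool (fitted -0.94 ± 0.06, SE; adjusted p = 0.000134). Desmin (Des), a filament found in quiescent and activated rodent stellate cells, lay at -0.16, -0.19, -0.19 and -0.20 in the mice and at -0.10 in the swapped pool. Its values were small and all below 0, and the fit did not pass (-0.14 ± 0.05, SE; adjusted p = 0.0817). It passed under 5 of the 17 alternatives, among them the 1 without the swapped pool (-0.18).

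Signalling genes moved in both directions. The upstream window of Tgfbr2, which codes for the type II receptor that binds transforming growth factor beta, is shown as that of the only gene of the 36 tested to rise by more than 0.6. It lies at chr9:116175364-116175613 on the minus strand (RefSeq, GRCm38.p6) and holds 2 CCAAT boxes, 1 on each strand, in capitals.
Tgfbr2: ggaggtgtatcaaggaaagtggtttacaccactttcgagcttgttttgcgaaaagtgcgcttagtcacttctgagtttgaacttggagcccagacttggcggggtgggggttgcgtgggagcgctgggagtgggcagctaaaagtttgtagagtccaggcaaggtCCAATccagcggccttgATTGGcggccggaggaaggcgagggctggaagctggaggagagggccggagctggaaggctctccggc

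Tgfbr2 lay at 0.91, 0.42, 0.85 and 0.57 in the mice and at 1.06 in the swapped pool (fitted 0.87 ± 0.10, SE; adjusted p = 0.00150), above 0 on every array. Its second probe gave 0.43. Its ligand gene Tgfb1 was lower at -0.32 ± 0.09 (SE; adjusted p = 0.0393), with mice 2 and 3 at -0.04 and -0.05. The call for Tgfb1 ended without mouse 1 (adjusted p = 0.0535), without mouse 4 (adjusted p = 0.0737) and without the swapped pool (adjusted p = 0.0742), among 9 alternatives in all. Pdgfrb, the receptor through which platelet-derived growth factor drives stellate cell growth, was lower at -0.56 ± 0.06 (SE; adjusted p = 0.00101). Pdgfrb averaged -0.38 in the 4 mice and lay at -0.74 in the swapped pool. Pdgfra, the paralogue of Pdgfrb, was at -0.13 and did not pass. Galectin-1 (Lgals1), a carbohydrate-binding protein of mesenchymal cells, was lower at -0.38 ± 0.07 (SE; adjusted p = 0.00738).

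Mouse 1 stood apart for part of the set. It was the highest of the 4 mice for 22 of the 36 genes and the lowest for 3. How often this held over all features was not counted. The median of all features was -4e-04 in mouse 1, and 0.0065, -0.0022 and -0.0029 in mice 2 to 4. Col6a1, Col6a2, Lum, Bgn, Loxl1, Timp2 and Pdgfra were above 0 in mouse 1 and below 0 in each of mice 2 to 4. For Timp2 this held for the brightest probe, while its second probe was at -0.14 in mouse 1. The median of the 36 genes was -0.17 in mouse 1, against -0.49, -0.44 and -0.38 in the other mice, and the swapped pool gave -0.43. Without mouse 1, 22 genes were lower and 3 were higher, where 14.7% and 10.7% of all features were. Cholangiocyte markers also differed between the mice: the median of the 5 tested was 0.48 in mouse 1, with none below 0, and -0.46, 0.03 and 0.05 in the others, with 5, 2 and 2 below 0. Their part in the pattern was not tested. Slide and scan also set this array apart, and their part in the difference cannot be told apart from that of the animal.

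**Figure D3:**
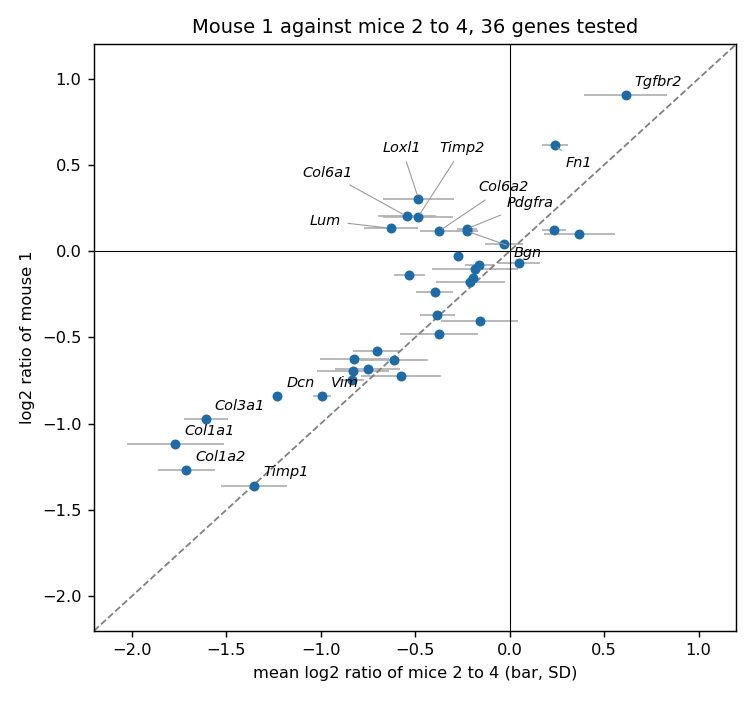
Log2 ratio of Fra-1hep over control in mouse 1 (y axis) against the mean of mice 2 to 4 (x axis) for the 36 genes tested. Bars are the SD of the 3 mice and the dashed line is equality. Of the 8 genes in the upper left, Fbn1 lies close to 0 on both axes and was above 0 in mouse 4, and the other 7 were below 0 in each of mice 2 to 4.

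Genes for the maturation of collagen fell in part with the collagens. Of 21 collagen maturation genes tested, 7 were lower and 2 were higher, with a median of -0.14, where 15.4% and 11.2% of all features were lower and higher. Plod2, 1 of the 7, passed the filter through the control RNA alone. Without the swapped pool 10 were lower and 1 was higher, beside 18.9% and 16.9% of all features. With a control spread allowed for 6 were lower and 1 was higher, beside 8.16% and 5.01%. Serpinh1, the collagen chaperone HSP47, was at -0.87 ± 0.06 and P4ha2, a prolyl hydroxylase subunit, at -1.18 ± 0.11 (SE). Bmp1, which removes the C-terminal propeptide of procollagen, was higher at 0.48 ± 0.06, with a mean of 0.26 over the 4 mice against 0.69 for the swapped pool, while Adamts14, which removes the N-terminal one, was lower at -0.45 ± 0.07 (SE).

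Of 11 other collagen chains tested, 1 was lower and 2 were higher, shares near the 15.4% and 11.2% of all features. These were Col16a1 at -0.48, Col27a1 at 0.88 and Col4a6 at 0.26, the last with a mean of 0.13 in the 4 mice. Allowing for a control spread, 1 was lower and 1 was higher, beside 8.16% and 5.01% of all features. Among 15 laminins, nidogens and perlecan, 4 were lower (Lamb1, Nid1, Hspg2 and Lama4, from -0.59 to -0.31) and 1 was higher, beside the same shares of all features. Without the swapped pool 7 were lower and none was higher, beside 18.9% and 16.9% of all features. With a control spread allowed for 4 were lower and none was higher, beside 8.16% and 5.01%. Lamb1, at -0.44, averaged -0.22 in the 4 mice and lay at -0.66 in the swapped pool.

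Among 32 other matrix genes, 10 were lower and 3 were higher, where 15.4% and 11.2% of all features were. With a control spread allowed for, 7 were lower and 3 were higher, where 8.16% and 5.01% of all features were. Ccn2, a matricellular target of transforming growth factor beta, was lower at -1.93 ± 0.22 (SE), and the fibulin gene Fbln1 was higher at 1.23 ± 0.14 (SE). Ltbp2 and Ltbp1, of the family that binds latent transforming growth factor beta, were at -0.62 and -0.47. Mice and swapped pool differed in size here: Ltbp2 averaged -0.95 in the 4 mice with -0.29 in the swapped pool, and Ltbp1 averaged -0.23 over the same mice with -0.72 in that pool. In the list for transforming growth factor beta and platelet-derived growth factor, 8 of 22 were lower and 2 were higher, beside 15.4% and 11.2% of all features. Only 2 were lower and 2 were higher with a control spread allowed for, beside 8.16% and 5.01% of all features. Without the swapped pool 6 were lower and 4 were higher, beside 18.9% and 16.9%. Besides Ccn2, the integrin subunit gene Itgb5 was at 0.46, and the ligand genes Pdgfc and Pdgfb were at 0.34 and -0.29.

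Genes listed for quiescent stellate cells were also lower. Of 18 tested, 13 passed in that direction and 1 was higher, with a median of -0.37, beside 15.4% and 11.2% of all features. Nes and Hand2, a filament protein and a transcription factor, were at -0.51 and -0.48, and Hhip, a Hedgehog inhibitor, was at 0.66. With a control spread allowed for, 7 were lower and 1 was higher, beside 8.16% and 5.01% of all features. Lower genes were thus found both in this list and among the contractile and filament genes. No separate list was drawn up for activated stellate cells. Whether each listed gene, Nes among them, marks only the quiescent state was not tested.

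Markers of other liver cells moved beside the matrix genes. Of 8 macrophage markers, all well above background in both groups on all 5 arrays, 4 were lower and none was higher. Over all features 15.4% were lower and 11.2% were higher. Their median was -0.68 in the fit. By array it was -0.87, -0.21, -0.75 and -1.04 for mice 1 to 4, and the swapped pool gave -0.55. Trem2, Itgax, Cd74 and Adgre1 were at -0.86, -1.28, -0.99 and -0.82. The rest did not pass: Csf1r was at -0.54, Lyz2 at -0.36, Clec4f at 0.07 and Vsig4 at 0.05. Of 9 endothelial markers, 4 were lower and 1 was higher, beside 15.4% and 11.2% of all features. Lyve1 was at -1.52, Stab1 at -0.36 and Eng at -0.31, and Flt1 was higher at 1.00. Eng averaged -0.47 in the 4 mice. With a control spread allowed for, 2 endothelial markers were lower and 1 was higher, beside 8.16% and 5.01% of all features. Without the swapped pool 6 were lower and 2 were higher, beside 18.9% and 16.9%. None of 5 cholangiocyte markers passed. Of 8 hepatocyte markers, 1 was lower (Tat, -0.58) and 1 higher (Serpina1a, 0.29), shares near those of all features. The hepatocyte calls depended on the arrays used. Without the swapped pool none was lower and 4 were higher, beside 18.9% and 16.9% of all features. Without mouse 1 none was lower and 1 was higher, beside 14.7% and 10.7%. Neither call held with a control spread allowed for. Serpina1a averaged 0.81 in the 4 mice and lay at -0.22 in the swapped pool, and Tat averaged -0.33 over the same mice and lay at -0.83 in that pool. Of the adipocyte list only Cfd was tested. It was well above background with control RNA on all 5 arrays and with Fra-1hep RNA on no array, so it passed the filter through the control RNA alone. Cfd was lower in Fra-1hep liver (adjusted p = 5.236e-05), and its fitted value of -3.46 is not a measured fold. The part of these cell types in the lower matrix values was not tested.

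**Figure D4:**
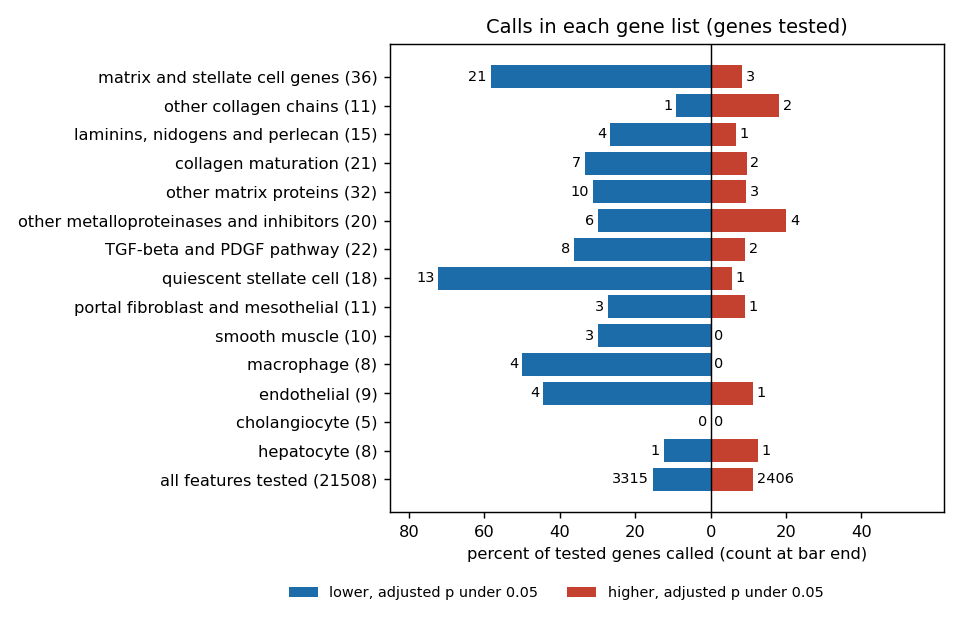
Share of the tested genes of each list (number in brackets) that were lower (left, blue) or higher (right, red) in Fra-1hep liver, as a percent on the x axis, with counts at the bar ends. The matrix and stellate cell genes had 21 lower and 3 higher, and the quiescent stellate cell list 13 lower and 1 higher.

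For some genes the size of the fitted value depended on the treatment of background. With the scanner's own processed signals, the fitted value was -2.33 for Timp1, -1.08 for Postn, -2.03 for Mmp13 and -1.38 for Col5a2. With an offset of 50 these were -1.44, -0.66, -0.35 and -0.14. Mmp13 and Col5a2 were not well above background with Fra-1hep RNA on any array, so their fitted values are not measured folds. The offset pulls ratios of dim spots towards 0. The value for Col1a1 moved only between -1.86 and -1.61 over all 17 alternatives.

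**Figure D5:**
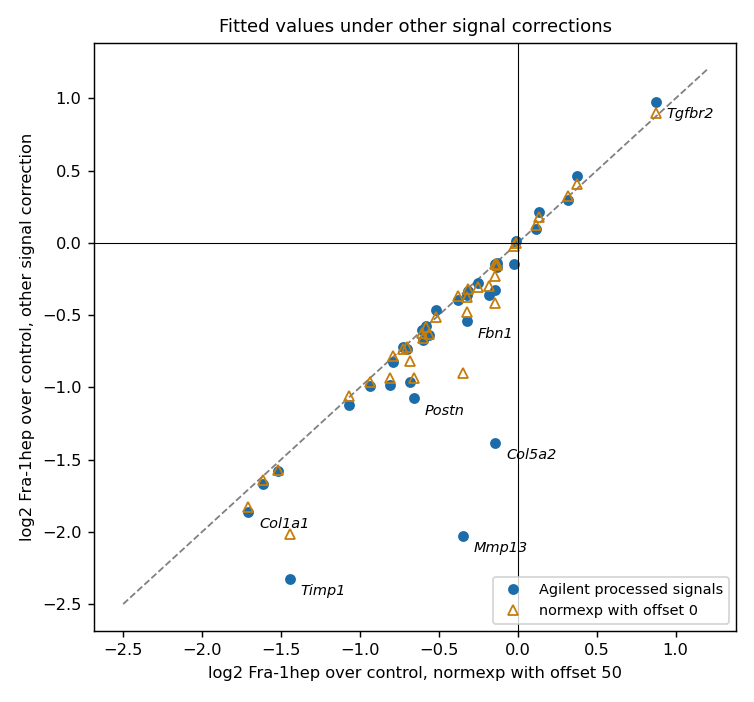
Fitted log2 ratio of Fra-1hep over control under 2 other signal corrections (y axis) against the value reported, with an offset of 50 (x axis), for the 36 genes tested. Filled points are the scanner's processed signals, open triangles are an offset of 0, and the dashed line is equality. Timp1, Postn, Mmp13 and Col5a2 lie below the line.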

How the data were processed

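Scanner files of 5 Agilent 2-colour arrays were used. Per the file headers, the authors extracted spot intensity with Feature Extraction 10.7.3.1 (10.7 in the submitters' processing notes). Its log10 ratio, deposited in the same files, served only to check the deposited log2 table, which matched it on 23079 probes (slope 1 on the arrays of single mice, -1 on the swapped one): it is Fra-1hep over control and not centred. Median signals were corrected with normexp (offset 50) against local background and normalised by loess in limma 3.58.1 (R 4.3.3). Control spots and 189 outlier spots had no weight, and 0 were saturated. Of 55681 probes, 26056 were named through RefSeq accessions. A probe was kept where 1 channel or both were well above background on 3 or more arrays, and the brightest stood for its gene. The limma model held genotype and dye, with Benjamini-Hochberg adjustment over 21508 features at 0.05. The control pool is 1 control sample, so its animals' spread is left out, and the number of arrays limits the precision. Residual degrees of freedom were 3, with 3.99 added by moderation.

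The genes and lists were chosen with earlier results of these data known. Of the 40, those past the threshold and beyond 0.6, the fibrillar collagens, Acta2, Tagln and Des are given on every array, and each further list by its counts and up to 4 genes with the smallest p. A gene that this rule would name is not reported here. Loxl1, Col6a1, Col6a2 and the other genes given in part per array, Plod2, Mmp12, Plat, Plau, Mmp8 and Mmp9 were chosen after their values were seen. The macrophage markers that did not pass were also named after their values were seen. The pipeline was tested on simulated data. The alternatives numbered 17 and covered background, normalisation, filter, probe choice, dye, slide, control spread, minimum change and left-out arrays.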

Additional observations from a re-analysis of the deposited data

Results flagged for a closer look

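In 3 of the 36 genes tested, 1 of the 4 mice lay further from the rest than Dixon's 95% critical value allows. For Dcn mouse 1 was at -0.84, the closest to 0. For Mmp2 mouse 1 was at -0.0272, also the closest to 0. For Loxl2 mouse 4 was at -1.05, the lowest. Chance alone passes about 1 in 20 such groups.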

How the results depend on the processing

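The 21 lower and 3 higher genes became 13 and 1 for a change beyond 1.2-fold, beside 3.32% and 1.53% of all features. With a control spread allowed for they became 17 and 1, beside 8.16% and 5.01%. The median of the 36 genes, -0.36, was -0.56 with the scanner's processed signals and with the deposited log2 ratios. Leaving out each mouse in turn gave 19 to 22 lower genes, 2 to 3 higher genes and medians from -0.40 to -0.36. In these fits 11.9% to 15.2% of all features were lower and 7.95% to 10.7% were higher. Leaving out the swapped pool gave 20 lower and 4 higher, beside 18.9% and 16.9% of all features. Values near 0 turned sign: Col4a1 was 0.0099 with processed signals and with the deposited ratios, 3e-04 with an offset of 0 and from -0.0419 to 0.019 when single mice were left out, and Col18a1 was -6e-04 as the mean of its probes. The cause was not tested. Calls for Timp2, Tgfb1, Fn1 and Lum ended under several alternatives, while the 3 main fibrillar collagens and Timp1 kept theirs under all 17. The alternative for the slide is the same fit as leaving out mouse 1. No paired analysis was possible because replicate numbers exist in only 1 group. Signal over background limits Mmp13 and Col5a2, and Col15a1, Eln and Lox could not be tested.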

Other observations

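Further genes that the lists hold moved in both directions. Of 20 other metalloproteinases and inhibitors tested, 6 were lower and 4 were higher, where 15.4% and 11.2% of all features were. Of these 10 calls, 5 (Mmp12, Plat, Plau, Mmp8 and Mmp9) were of probes that passed the filter through only the group with more RNA. Such a filter favours a difference in that direction. With a control spread allowed for, 3 were lower and 2 were higher, beside 8.16% and 5.01% of all features. Adamts1 and the urokinase receptor gene Plaur were lower at -0.52 and -0.50, while Mmp15 and Mmp19 were higher at 0.44 and 0.32, and Mmp19 averaged 0.58 in the 4 mice and lay at 0.06 in the swapped pool. Of 11 markers of portal fibroblasts and mesothelial cells, 3 were lower (Cd34 at -0.37, Wt1 at -0.44 and Thy1 at -0.27) and 1 was higher. Over all features 15.4% were lower and 11.2% were higher. None of these 3 lower calls held with a control spread allowed for, and Wt1 averaged -0.24 in the 4 mice and lay at -0.64 in the swapped pool. The higher gene, Entpd2, an ectonucleotidase, lay at 2.15, 1.97, 1.96 and 2.24 in mice 1 to 4 and at 2.37 in the swapped pool (fitted 2.22 ± 0.07, SE). Of 10 smooth muscle markers, 3 were lower and none was higher, beside 15.4% and 11.2% of all features. These were Actg2 at -0.35, Cnn1 at -0.31 and Cald1 at -0.39. For Cald1 the swapped pool lay at -0.82 and the 4 mice between -0.15 and 0.15. With a control spread allowed for, 1 smooth muscle marker was lower, beside 8.16% of all features. No skeletal muscle marker passed the filter on dim spots.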
